A study of Mus musculus with 10 samples.

Results

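The mitochondrial ribosomal protein genes were taken as the rows of the count table whose symbol begins with Mrpl or Mrps and a digit, without the rows marked as pseudogenes, which gave 78 of 56748 genes. By name, 49 belong to the large subunit (Mrpl) and 29 to the small subunit (Mrps). The series holds 5 control and 5 Ad-Fam20c–KO RNA-seq libraries of adipocytes differentiated in primary culture. The gene targeted in KO cells encodes FAM20C, a kinase of the secretory pathway. Control cells carried the genotype Fam20c-flox and KO cells the genotype Fam20c-flox/Adipoq-Cre, so the floxed allele was shared by both groups and only the KO cells carried Cre. The mice were males of 6 to 8 weeks on a background backcrossed to C57BL/6J. Stromal vascular cells of their inguinal fat were grown and differentiated for 6 to 8 days with IBMX, dexamethasone, insulin and rosiglitazone, then with insulin and rosiglitazone, and last with insulin alone. Cre is driven by the adiponectin promoter, which is active in adipocytes, and the starting stromal vascular fraction also holds progenitors, endothelial cells and macrophages. The labels do not say whether the libraries of a group come from separate mice or cultures, so P values measure the spread between these samples, which may be technical. Total counts ranged from 18949106 to 26237825 in control and from 19883101 to 23291792 in KO libraries. Control 4 and KO 1 stood apart from the other libraries of their groups on the first principal component of all genes tested, which held 23.5% of the variance, with scores of 21.7 and 24.2. The other control libraries scored from -14.8 to -11.5 and the other KO libraries from -4.12 to 8.59.

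Mitochondria keep their own ribosomes, which translate the few proteins encoded by mitochondrial DNA, all of them core subunits of the respiratory chain and ATP synthase. The ribosomal RNAs come from mitochondrial DNA, while every ribosomal protein is made in the cytosol from a nuclear gene and imported, so a working particle needs nuclear and mitochondrial products together. Some of its proteins descend from the bacterial ribosome and others were added during the evolution of mitochondria. In adipocytes, mitochondria rise in number during differentiation and serve fatty acid oxidation, lipogenesis and, in brown and beige cells, heat production.

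The targeted gene, Fam20c, had control values of 8.86, 10.3, 11.9, 9.09 and 11.2 CPM and KO values of 6.65, 7.29, 7.11, 7.70 and 7.74 CPM (counts scaled to library size with TMM factors), each listed from library 1 to library 5, as in all such lists below. Every KO library lay below every control library. The log2 fold change was -0.49 (SE 0.093, adjusted p = 0.0137 by edgeR, quasi-likelihood fit, adjusted after Benjamini and Hochberg over 14270 genes). Whole-gene counts were used, so reads from the deleted region were not looked at apart from the rest.

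Of the 78 members, 77 had enough counts to be tested, and each of these had over 100 counts in every library, with 260 to 4944 counts per gene and library. Mrpl53 was the remaining member and had 0 counts in all 10 libraries. Together the members took 0.392% to 0.444% of a library's counts. Their levels were compared per length, as RPKM (CPM per kilobase of the union of annotated exons). The median member had 23.3 RPKM, and the levels ran from 2.18 to 125 RPKM, as means over both groups. With the length of the principal transcript, a shorter measure for genes with retained introns, the median was 34.8 RPKM and the range 5.56 to 166 RPKM. The order of the members by RPKM followed in part from the length used, with a Spearman correlation of 0.760 between both orders across 77 genes.

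The stalk protein gene Mrpl12, whose product recruits translation factors to the large subunit, was among the 5 highest by both lengths. Its level was 124 ± 7.00 (SD, n = 5) RPKM in control and 126 ± 4.64 (SD, n = 5) RPKM in KO cells by exon union. Mrpl20, a protein of bacterial type that binds the large ribosomal RNA, was also among the 5 highest by both, at 70.0 ± 3.96 (SD, n = 5) RPKM in control and 73.1 ± 2.77 (SD, n = 5) RPKM in KO cells. Mrps21, a small protein of the small subunit, was also among these, at 64.0 ± 2.48 (SD, n = 5) RPKM in control and 62.1 ± 1.62 (SD, n = 5) RPKM in KO cells. In each of these 3 genes the spread between libraries of a group was small beside the level. Mrpl34 and Mrpl54 ranked 3 and 4 by exon union and 8 and 6 by principal transcript. At the low end, Mrps25 was among the 3 lowest by both lengths, with 4.99 ± 0.191 (SD, n = 5) RPKM in control cells, and 69.8% of its exon bases are shared with Nr2c2 on the opposite strand. The strand setting of the counting is not given in the sources used here, so overlapping genes may share or lose fragments. Mrpl33 and Mrpl23 were the other 2 lowest by exon union, at ranks 77 and 76, but stood at ranks 43 and 52 by principal transcript, so they were not low by both lengths. Mrpl42, a subunit found only in mitochondria, ranked 25 by exon union and 1 by principal transcript.

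In KO against control cells most members had slightly higher values, and none passed the test by edgeR. The log2 fold change was positive for 69 of 77 tested members (89.6%), while 49.7% of all genes tested had a positive value. The median log2 fold change was 0.060, a difference of 4.27%, with quartiles at 0.026 and 0.085, and the median over all genes tested was -0.00085. The number of members past the limit of 0.05 on the adjusted p by edgeR was 0 in the higher and 0 in the lower direction, where 0.308% of all genes were called higher and 1.86% lower. The smallest adjusted p of a member by edgeR was 0.0728. At an unadjusted p under 0.05, 13 members were higher and 0 lower, against 4.43% and 7.46% of all genes. The count of higher members at that unadjusted limit went down to 6 with library totals and up to 21 without KO 2. Over all genes that count was 632 of 14270 with TMM factors and every library. It was 335 of 14270 with library totals and 609 of 14399 without KO 2. DESeq2 called 2 members higher and 0 lower, against 0.876% and 2.52% of all genes. Limma voom with quality weights called 1 member higher and 0 lower, against 0.778% and 2.43% of all genes. The member called by both tools was Mrpl13, and DESeq2 also called Mrpl1. The 95% interval of the log2 fold change lay above 0 for 13 members and crossed 0 for 64. In such bulk samples of mixed cells, fewer cells of a type and less RNA per cell cannot be told apart, nor can more cells and more RNA per cell.

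**Figure D1:**
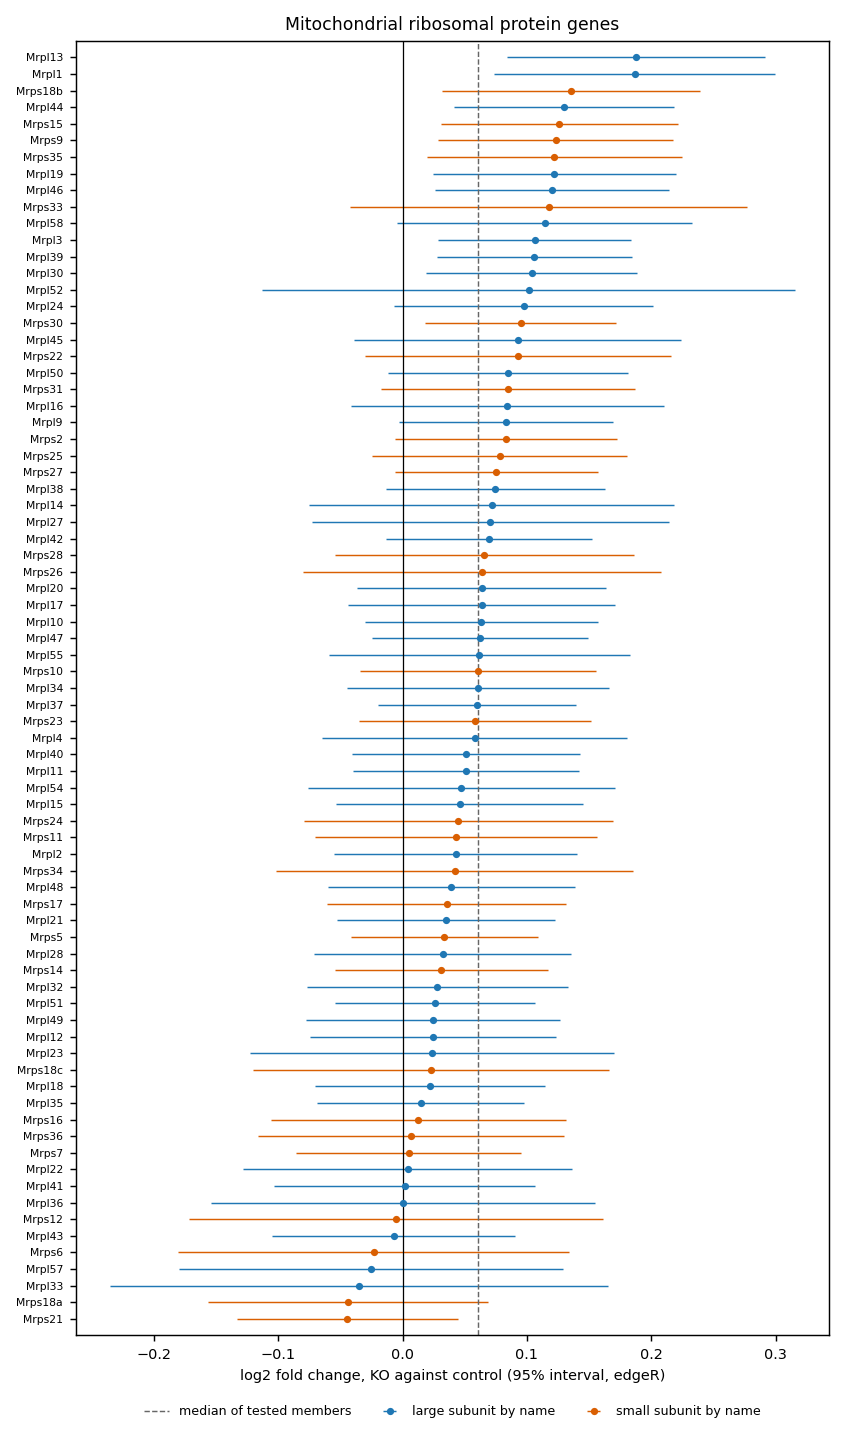
Log2 fold change of KO against control on the x axis for the 77 tested members, ordered by size, with the 95% interval from edgeR as bars and colors for the subunit named in the symbol. Most points lie to the right of 0, from -0.045 to 0.19, and 64 of the intervals cross 0.

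Both subunits had mostly positive values. By name, 44 of 48 tested members of the large subunit had a positive log2 fold change, with a median of 0.061. In the small subunit 25 of 29 were positive, with a median of 0.058. The mean log2 CPM of the large subunit members exceeded that of the small subunit members by 0.251 ± 0.00643 (SD, n = 5) in control and by 0.259 ± 0.00533 (SD, n = 5) in KO libraries. The ranges of this difference overlapped, from 0.243 to 0.258 in control and from 0.251 to 0.265 in KO libraries. Not every symbol gives the right subunit. The products of Mrps30 and Mrps18a sit in the large subunit of the assembled particle, and Mrps36 encodes a subunit of the α-ketoglutarate dehydrogenase complex and not a ribosomal protein. Assigned by structure, 45 of 50 large subunit genes and 23 of 26 small subunit genes were positive, with medians of 0.061 and 0.059. The mean log2 CPM of the large subunit then exceeded that of the small one by 0.267 ± 0.00308 (SD, n = 5) in control libraries. In KO libraries it did so by 0.27 ± 0.00743 (SD, n = 5).

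Averaged over the tested members, log2 CPM was 5.53, 5.59, 5.62, 5.52 and 5.62 in the control group and 5.61, 5.60, 5.66, 5.66 and 5.64 in the KO group. Control 1 and Control 4 were low, KO 3, KO 4 and KO 5 lay above every control library, and KO 1 and KO 2 fell within the control range, so the groups overlapped. The group means were 5.57 ± 0.0456 and 5.63 ± 0.0276 (SD, n = 5 each). Without Control 4 and KO 1, 67 of 77 members were positive with a median log2 fold change of 0.050, and edgeR called 0 (smallest adjusted p = 0.0758).

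**Figure D2:**
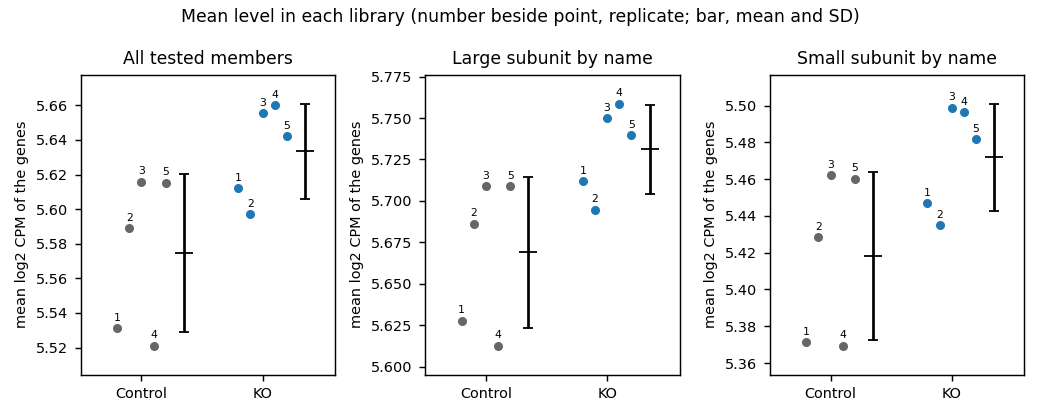
Mean log2 CPM on the y axis for all tested members and for each subunit by name, with 1 point per library, its replicate number beside it, and the mean and SD of each group of 5 as a bar. In each panel Control 1 and Control 4 are the lowest points and KO 3 to KO 5 lie above all control libraries, while KO 1 and KO 2 lie within the control range or close above it.

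The members varied within a group about as much as the other lists of abundant nuclear genes given here. The SD of log2 CPM between libraries of a group had a median of 0.0655 over the tested members and 0.135 over all genes tested, whose median level by principal transcript was 7.38 RPKM against 34.8 RPKM. It was 0.0552 over respiratory chain genes, 0.0662 over adipocyte markers, 0.0718 over the subunits with other names and 0.0841 over cytosolic ribosomal protein genes. The 13 protein genes of mitochondrial DNA varied more, with a median SD of 0.559 at a median level of 35.5 RPKM by principal transcript. Control 4 held the lowest value of the control group for 39 members and Control 1 for 24, while Control 5 held the highest for 32 and Control 3 for 20. In the KO group, KO 2 was lowest for 31 members and KO 1 for 21, and KO 4 was highest for 31. The members' deviations from their group means were also set against log2 transcript length. The Pearson correlations were 0.301, -0.134, -0.428, 0.32 and -0.207 in the control group. In the KO group they were 0.257, -0.0246, -0.298, 0.162 and -0.107. Shorter members thus tended to be lower in some libraries and higher in others. In Control 4, the 39 members with a principal transcript of 1316 bases or less deviated by -0.081 on the log2 scale on average. The 38 longer ones deviated there by -0.025. The corresponding deviations in KO 1 were -0.036 and -0.0062. The median log2 fold change of KO against control was 0.047 for the shorter and 0.064 for the longer members, and 33 of 39 and 36 of 38 were positive.

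Mrpl13 encodes uL13m, a large subunit protein of bacterial descent, and lies on chromosome 15 from 55534094 to 55557748 on the minus strand (GENCODE M21, GRCm38). It had control values of 43.4, 42.8, 43.3, 47.0 and 47.1 CPM and KO values of 53.3, 47.2, 51.2, 52.7 and 50.3 CPM. Control 4 and Control 5 came close to KO 2, the lowest KO library, but the groups did not overlap. The log2 fold change was 0.19 (SE 0.048, 95% interval 0.084 to 0.29), the largest of the tested members by edgeR, with an adjusted p of 0.0728 by edgeR. The adjusted p over the alternatives ran from 0.0241 to 0.176, and it fell below 0.05 with DESeq2 (0.0241), with limma voom (0.0462), without Control 4 (0.0475) and without KO 2 (0.0476). Over all genes these 4 settings called 125, 111, 119 and 23 genes higher, against 44 by edgeR with every library. Mrpl13 shares 4.20% of its exon bases with Mtbp on the opposite strand.

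Mrpl1 encodes uL1m of the mobile stalk beside the site where spent tRNAs leave. The control values were 52.6, 51.9, 53.4, 56.0 and 57.2 CPM and the KO values 67.4, 59.6, 57.1, 64.8 and 59.7 CPM. KO 1 and KO 4 were highest, and KO 3 fell just below Control 5, the highest control library, so the groups overlapped at 1 point. The log2 fold change was 0.19 (SE 0.052, adjusted p = 0.105 by edgeR, exact 2-sided permutation p = 0.0159), and DESeq2 gave an adjusted p of 0.0435, the lowest of a range over the alternatives that reached 0.235.

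In 7 members all 5 KO libraries lay above all 5 control libraries, and in 0 all lay below. Over all genes tested the shares were 1.31% and 2.66%. Beside Mrpl13 these members were Mrps18b, Mrps15, Mrpl46, Mrpl3, Mrpl39 and Mrps30. By edgeR the adjusted p of these 7 lay between 0.0728 and 0.270, so none passed the limit.

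Mrpl3 encodes uL3m, which reaches toward the catalytic center of the large subunit. It had control values of 81.2, 80.4, 82.2, 84.8 and 80.1 CPM and KO values of 90.7, 88.0, 86.5, 89.7 and 85.0 CPM. The closest pair was Control 4 and KO 5. Its log2 fold change was 0.11 (SE 0.036, adjusted p = 0.207 by edgeR).

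Mrpl39, a mitochondrial addition to the large subunit related to a tRNA synthetase, had control values of 75.2, 74.0, 73.3, 72.6 and 72.7 CPM and KO values of 77.8, 76.4, 77.7, 82.2 and 81.8 CPM. The control libraries lay within a narrow band and KO 4 and KO 5 were highest. Its log2 fold change was 0.11 (SE 0.036, adjusted p = 0.219 by edgeR). Mrpl46, which belongs to the central protuberance at the top of the large subunit, had control values of 33.0, 34.8, 36.1, 32.5 and 35.7 CPM and KO values of 37.7, 37.0, 37.0, 38.4 and 37.1 CPM. Here the KO libraries were close together and the control libraries spread more widely, with Control 4 and Control 1 low. Its log2 fold change was 0.12 (SE 0.044, adjusted p = 0.254 by edgeR).

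Mrps30, named for the small subunit but placed in the large one as mL65, had control values of 59.3, 59.2, 62.6, 61.2 and 60.7 CPM and KO values of 63.9, 65.2, 63.1, 66.4 and 65.05 CPM. Control 3 came within a small distance of KO 3. Its log2 fold change was 0.095 (SE 0.035, adjusted p = 0.270 by edgeR). Mrps15 encodes uS15m, a protein of bacterial descent that binds the small ribosomal RNA early in assembly. It had control values of 37.2, 40.4, 40.1, 40.6 and 40.6 CPM and KO values of 44.7, 41.9, 42.7, 42.0 and 45.8 CPM. Control 1 lay below the other 4 control libraries, which were nearly equal. Its log2 fold change was 0.13 (SE 0.044, adjusted p = 0.230 by edgeR).

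**Figure D3:**
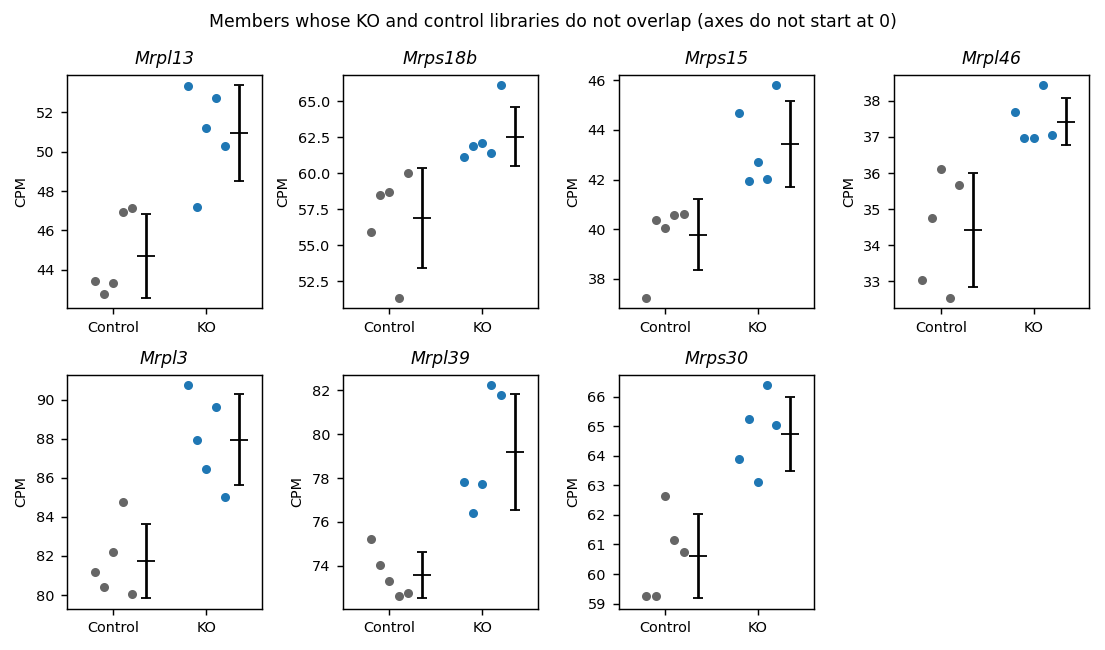
CPM on the y axis in each control and KO library for the 7 members whose groups did not overlap, with the mean and SD of each group of 5 as a bar and axes that do not start at 0. The gap between the groups is narrow in every panel, and narrowest for Mrpl13, where Control 5 had 47.1 CPM and KO 2 had 47.2 CPM.

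The remaining genes among the 8 largest differences were Mrpl44, Mrps9, Mrps35 and Mrpl19. Mrpl44 encodes a large subunit protein with a domain like RNase III and had control values of 42.4, 43.9, 45.0, 47.0 and 45.1 CPM and KO values of 48.9, 46.8, 48.6, 50.3 and 49.9 CPM. KO 2 fell just below Control 4 and the other 4 KO libraries lay above all control libraries (log2 fold change 0.13, SE 0.041, adjusted p = 0.164 by edgeR). Mrps9, whose bacterial counterpart has a tail that touches the tRNA in the peptidyl site, differed by 0.12 (SE 0.044) and Mrps35, a mitochondrial protein of the small subunit head, by 0.12 (SE 0.047) on the log2 scale. Mrpl19, found at the interface of the subunits, differed by 0.12 (SE 0.045), and 36% of its exon bases are shared with Gcfc2 on the opposite strand. In these 3 genes the groups overlapped and the adjusted p by edgeR was 0.240, 0.301 and 0.266.

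At the other end, 8 members had a log2 fold change below 0, the lowest at -0.045. Mrps21 had control values of 45.4, 49.8, 46.2, 46.6 and 48.7 CPM and KO values of 45.6, 44.7, 47.1, 47.2 and 44.9 CPM. The values of the groups were interleaved, with Control 2 and Control 5 highest (log2 fold change -0.045, SE 0.041, adjusted p = 0.768 by edgeR). Mrps18a had control values of 46.8, 45.3, 49.9, 44.7 and 52.1 CPM and KO values of 46.3, 43.6, 48.1, 45.4 and 48.3 CPM. Control 5 and Control 3 were highest and the rest were mixed (log2 fold change -0.044, SE 0.052, adjusted p = 0.840 by edgeR). With 1 library left out Mrps21 ran from -0.059 to -0.025 and Mrps18a from -0.064 to -0.011. Mrpl33, a small protein of the large subunit, had control values of 15.2, 17.96, 18.2, 14.3 and 15.1 CPM and KO values of 12.9, 15.6, 16.5, 17.3 and 16.5 CPM. KO 1 and Control 4 were its lowest libraries, and its 95% interval from -0.24 to 0.17 was the widest of the members named here. Mrpl57, Mrps6, Mrpl43, Mrps12 and Mrpl36 had log2 fold changes of -0.026, -0.023, -0.0074, -0.0057 and -6.7e-05 with intervals that crossed 0. The sign of Mrpl33 and of these 5 turned when single libraries were left out, so no direction is given for them.

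The S18 proteins come from 3 genes that share a bacterial ancestor and have gone to different places in the particle. Mrps18c encodes the protein that took the bacterial position in the small subunit, Mrps18b a second small subunit protein, and Mrps18a a large subunit protein. Mrps18b had control values of 55.9, 58.5, 58.7, 51.4 and 60.0 CPM and KO values of 61.1, 61.9, 62.1, 61.4 and 66.1 CPM. The KO libraries lay above all control libraries, Control 4 was low and KO 5 high, and the log2 fold change was 0.14 (SE 0.048, adjusted p = 0.236 by edgeR). Of its exon bases 30.5% are shared with Gm16279 on the opposite strand, and of those of Mrps18c 23.2% with Gm43511 on the same strand, where fragments may go uncounted. Mrps18c had 14.3 ± 0.669 (SD, n = 5) CPM in control and 14.5 ± 1.11 (SD, n = 5) CPM in KO libraries, with a log2 fold change of 0.022 (SE 0.066) whose sign turned when KO 3 was left out. Per length the order was not the same by both lengths, with Mrps18b at 28.6, Mrps18c at 13.4 and Mrps18a at 12.8 RPKM by exon union and at 55.3, 22.5 and 53.2 RPKM by principal transcript, so only the place of Mrps18b as the highest held. The overlap of Mrps18c was not corrected for in these levels.

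The stalk that calls translation factors to the large subunit is made by Mrpl10, Mrpl11 and Mrpl12. Mrpl12 had control values of 175, 185, 196, 191 and 204 CPM and KO values of 195, 182, 193, 199 and 199 CPM. Control 1 was lowest and Control 5 highest, so the control group enclosed all KO libraries (log2 fold change 0.024, SE 0.046, adjusted p = 0.917 by edgeR), and the sign turned when Control 1 was left out. Mrpl10 and Mrpl11 had log2 fold changes of 0.063 (SE 0.043, 0.039 to 0.084 with 1 library left out) and 0.051 (SE 0.042). Around the exit of the peptide tunnel, 6 of 6 members had a positive value, with a median of 0.063. In the central protuberance it was 8 of 8, with a median of 0.066. Over the alternatives 5 to 6 and 7 to 8 were positive. No member of these 3 sites passed the adjusted limit by edgeR, and by DESeq2 or limma voom the number was 0 as well, while 1 of them had an unadjusted p under 0.05. Over the alternatives the number at that unadjusted limit ran from 0 to 4 in the central protuberance and from 0 to 1 at the tunnel exit, against 4.43% of all genes higher by edgeR. The 4 came without KO 2, where 609 of 14399 genes were higher at that limit.

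By the systematic names of the proteins, 46 members take the place of a bacterial counterpart and 31 are counted as specific to mitochondria. Mrps18a and Mrps18b are counted with the second kind because of their places in the particle, although they descend from the S18 family, and the values below rest on this assignment. The median log2 fold change was 0.048 over 46 tested genes of the first kind and 0.075 over 30 of the second, and 41 and 27 were positive. The quartiles overlapped, from 0.024 to 0.071 and from 0.043 to 0.10. With library totals the medians were 0.026 and 0.053, and 36 and 26 genes were positive. The difference between the kinds was not tested. Mrps36, the member that is no ribosomal protein, had 34.0 ± 2.32 (SD, n = 5) CPM in control and 34.1 ± 1.72 (SD, n = 5) CPM in KO libraries and a log2 fold change of 0.0067, which was -0.015 with library totals in place of TMM factors and changed sign in 5 of 19 alternatives. Mrpl42, of the second kind, had 108 ± 4.39 (SD, n = 5) CPM in control and 113 ± 2.27 (SD, n = 5) CPM in KO libraries (log2 fold change 0.069, SE 0.038).

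Mrpl53 lies on chromosome 6 from 83109040 to 83109939 on the plus strand, and 88% of its exon bases are shared with Gm42688, annotated on the same strand, while Ccdc142os overlaps it on the opposite strand. Gm42688, named after its values were seen, had 6 to 32 counts per library. Whether fragments of Mrpl53 were set aside as ambiguous between overlapping genes was not tested. The 6 rows of the table that match the names but are marked as pseudogenes had 0 to 10 counts per library. Few reads were thus counted for these copies beside those counted for the members.

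Subunits of the same ribosome that bear other names also had mostly positive values. Of the 5 genes, 5 had a positive log2 fold change, with a median of 0.069. Ptcd3, an RNA-binding protein of the small subunit, had control values of 135, 124, 123, 128 and 132 CPM and KO values of 141, 144, 136, 145 and 138 CPM. All its KO libraries lay above all control libraries, with a log2 fold change of 0.13 (SE 0.038, adjusted p = 0.116 by edgeR and 0.0230 by DESeq2, over a range of 0.0230 to 0.321 across the alternatives). Dap3, a GTP-binding protein of the small subunit, differed by 0.069 (SE 0.035), Aurkaip1 by 0.085 (SE 0.047), Gadd45gip1 by 0.060 (SE 0.056) and Chchd1 by 0.034 (SE 0.075) on the log2 scale, and the sign of Chchd1 turned when Control 1 or KO 3 was left out. With 1 library left out Aurkaip1 ran from 0.055 to 0.12 and Gadd45gip1 from 0.036 to 0.086. By edgeR none of the 5 was called, 1 had an unadjusted p under 0.05 (1 to 3 over the alternatives), DESeq2 called 1 and limma voom 0.

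Genes that build and serve the ribosome showed small positive medians too. Among 25 assembly factors, which modify ribosomal RNA or guide the particle's assembly, 20 were positive, with a median log2 fold change of 0.048. The largest value was that of Mettl15, a methyltransferase of the small ribosomal RNA (0.16, SE 0.093), and the smallest that of Mtg2, a GTPase of large subunit assembly (-0.12, SE 0.086). Among 16 translation factors, 12 were positive, with a median of 0.054, from -0.094 (SE 0.085) for Mtrf1 to 0.18 (SE 0.091) for Mtrf1l, both of which encode release factors. Among 20 genes that charge mitochondrial tRNAs, 17 were positive, with a median of 0.064, from -0.16 (SE 0.094) for Cars2 to 0.16 (SE 0.045) for Hars2. Among 21 genes of mitochondrial transcription, DNA upkeep and RNA processing, 16 were positive, with a median of 0.082, from -0.12 (SE 0.073) for Prorp, the nuclease of mitochondrial RNase P, to 0.25 (SE 0.18) for Mterf1a, a termination factor at 2.16 CPM in control libraries. With library totals the 4 medians were 0.027, 0.032, 0.042 and 0.059. With 1 library left out the 4 medians ran from 0.043 to 0.077, 0.050 to 0.067, 0.050 to 0.079 and 0.055 to 0.085. The values at the ends of the lists moved more, from 0.11 to 0.20 for Mettl15, -0.19 to -0.080 for Mtg2, -0.14 to -0.057 for Mtrf1, 0.13 to 0.22 for Mtrf1l, -0.22 to -0.090 for Cars2, 0.14 to 0.18 for Hars2, -0.17 to -0.076 for Prorp and 0.10 to 0.32 for Mterf1a. In these 4 lists edgeR called no gene at the adjusted limit, and 1, 2, 1 and 3 genes were higher and 0, 0, 0 and 0 lower at an unadjusted p under 0.05, against 4.43% and 7.46% of all genes. Over the alternatives these higher counts ran from 0 to 2, 0 to 6, 1 to 3 and 2 to 6, and no lower count passed 1. Over all genes the higher count ran from 335 with library totals to 1093 without Control 4. DESeq2 called 0, 0, 1 and 0 higher and limma voom 0, 0, 0 and 0. Without Control 4, edgeR called 1 gene of the transcription list (adjusted p = 0.0314 by edgeR), as it did without Control 4 and KO 1 (adjusted p = 0.0431 by edgeR). Calls were also more frequent over all genes in these 2 fits. There edgeR called 119 and 145 genes higher, against 44 with every library.

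The members were also set beside the products they serve and the other ribosome of the cell. The nuclear genes of respiratory chain and ATP synthase subunits, chosen by symbol, had a positive value in 85 of 91 genes tested, or 81 of 84 without pseudogenes. Their median log2 fold change was 0.079. Against 0.308% of all genes, edgeR called 2 of them higher. These were Ndufa6 (0.18, adjusted p = 0.0293 by edgeR) and Cox6a2 (0.36, adjusted p = 0.0208 by edgeR), which are named after their values were seen. DESeq2 called 10 genes of this list higher and limma voom 5, against 0.876% and 0.778% of all genes. By edgeR the number was 0 with the replicate block and 0 to 3 with 1 library left out. The 3 were called without Control 4, where edgeR called 119 of all genes higher. The adjusted p of Ndufa6 over all alternatives (edgeR, DESeq2 and limma) ran from 5.48e-04 to 0.127 and that of Cox6a2 from 0.00334 to 0.0760, so neither call held throughout. The 13 protein genes of mitochondrial DNA, which the mitochondrial ribosome translates, had a median of -0.022, positive in 5, and the SD within groups had a median of 0.559. Control 5 and KO 4 were low for them, with summed levels of 19045 and 17688 CPM against 35651 to 49723 CPM in the other libraries. Their median was -0.19 without Control 5, 0.15 without KO 4 and 0.015 without Control 4 and KO 1, so no direction is given. The median of the members was 0.073 without Control 5 and 0.054 without KO 4. Cytosolic ribosomal protein genes had a median of 0.015 over 87 genes, positive in 59. With 1 library left out it ran from 0.00071 without KO 3 (44 positive) to 0.040 without Control 3 (75 positive) and 0.045 without KO 2 (72 positive), where the median of the members was 0.058, 0.072 and 0.071. It was -0.0069 with library totals and -0.0087 without Control 4 and KO 1. The median of the members stayed positive under these settings, at 0.038 with library totals, where the median of all genes was -0.023.

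**Figure D4:**
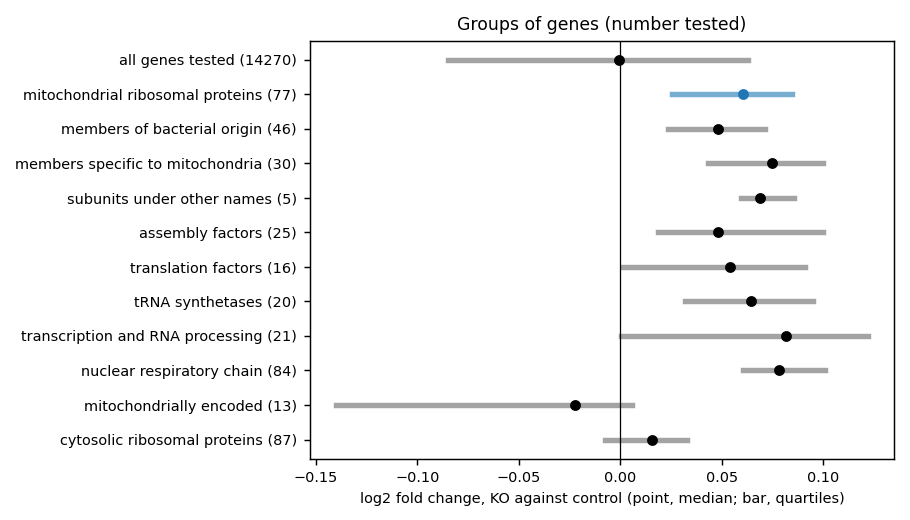
Median (points) and quartiles (bars) of the log2 fold change of KO against control on the x axis for the members and other groups of genes, with the number tested in brackets and pseudogenes of the respiratory chain left out. The medians of the members and of the other nuclear groups of mitochondrial genes lie between 0.048 and 0.082, and that of all genes tested at -0.00085.

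Of the lists of cell type markers, the endothelial one had the largest median difference. All 17 endothelial markers had a negative log2 fold change and 14 were called lower by edgeR, with a median of -1.23. Their summed level was 218, 230.1, 259, 259 and 255 CPM for the control group and 143, 114, 119.9, 103 and 110.3 CPM for the KO group, so the groups did not overlap. The most abundant of them, Cdh5, had 53.1 ± 5.11 (SD, n = 5) CPM in control and 22.1 ± 3.67 (SD, n = 5) CPM in KO libraries, and none of the markers was at 0 in any library. Among 8 progenitor markers 3 were called lower by edgeR (Pdgfra, Cd34 and Cd248), with a median of -0.36 and summed levels of 1112, 1094, 1128, 909.9 and 1227 CPM for the control group and 856, 908, 961, 990.2 and 996 CPM for the KO group, which overlapped. These 3 and Ucp1 are named after their values were seen, and the call of Cd248 was lost without KO 2 (adjusted p = 0.0537 by edgeR). The most abundant progenitor marker, Ly6a, differed by -0.060 (SE 0.10), with a sign that turned when Control 5 was left out. Pericyte and smooth muscle markers had a median of -0.21 over 6 genes with none called by edgeR, 0 by DESeq2, 0 by limma voom and 3 lower at an unadjusted p under 0.05 (2 to 4 over the alternatives), and edgeR called 1 lower without Control 1 and 1 without KO 3. With 1 library left out the median ran from -0.38 to -0.14. Their most abundant gene, Pdgfrb, differed by -0.080 (SE 0.093), and by -0.14 to -0.0096 with 1 library left out. Macrophage markers had a median of -0.031 with none called by edgeR, DESeq2 or limma voom and 0 at an unadjusted p under 0.05, or 1 lower with the replicate block. The sign of this median turned when Control 3 (0.065), KO 2 (0.051) or KO 5 (0.034) was left out, and the median was -0.13 without Control 4 and KO 1. Lyz2, the most abundant of them, differed by 0.057 (SE 0.17) and by -0.046 without Control 4 and KO 1, and changed sign in 6 of 19 alternatives. Fabp4, the most abundant adipocyte marker, had 20805 ± 357 (SD, n = 5) CPM in control and 22552 ± 945 (SD, n = 5) CPM in KO libraries, and 10 of 12 adipocyte markers had a positive value, with a median of 0.063. Among them edgeR called 0 higher, or 1 without Control 4 and 1 without Control 4 and KO 1, DESeq2 called 2 and limma voom 1, and 4 were higher at an unadjusted p under 0.05 (2 to 4 over the alternatives). Over all genes edgeR called 44 higher, or 119 without Control 4 and 145 without Control 4 and KO 1. Of 7 brown or beige markers 5 had a positive value, with a median of 0.028 and values from -0.045 to 0.87. The median ran from 0.021 to 0.11 with 1 library left out and was 0.0018 by limma voom. By edgeR 1 was called higher, Ucp1 (0.87, adjusted p = 0.0284 by edgeR), and 0 to 2 of the list were called over the alternatives, with 2 by DESeq2 and 2 by limma voom. The call of Ucp1 was lost in 7 of the 10 fits by edgeR that left out 1 library, with an adjusted p of up to 0.0856 by edgeR. Elovl3, the most abundant, differed by 0.028 (SE 0.075) by edgeR and by -0.0055 by limma voom, and changed sign in 3 of 19 alternatives. Of all genes, 0.308% were called higher and 1.86% lower by edgeR, 0.876% and 2.52% by DESeq2 and 0.778% and 2.43% by limma voom, and 4.43% and 7.46% were at an unadjusted p under 0.05 by edgeR. The part of these cell types in the values of the members was not tested.

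The members lie on 17 chromosomes, with 11 on chromosome 11 and 8 on chromosome 17. For 26 members another protein-coding gene starts on the opposite strand, up to 1000 bases upstream or a shorter distance inside the member. The 2 genes of such a pair run in opposite directions from nearby starts, and their 5′ ends may overlap. Their median log2 fold change was 0.043, with 23 positive, and that of the other 51 tested members 0.064, with 46 positive. In 1 pair both genes are members, Mrpl46 of the large and Mrps11 of the small subunit, whose annotated 5′ ends overlap on chromosome 7. Mrpl46 differed by 0.12 and Mrps11, which is named after its values were seen, by 0.043 (SE 0.052, 0.019 to 0.065 with 1 library left out). Over 20% of the exon bases of 10 members are shared with another gene, and 45 members share none.

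Promoter sequences of 300 bases were found for 69 of 78 members in the RefSeq table of GRCm38.p6, in 75 windows. Each window was searched on both strands for 5 short motifs, and the shares were set beside those of all 32851 windows of the table. The letters CCGGAAG, bound by ETS factors such as GABPA, occurred in 34.7% of the members' windows and 8.86% of all windows. AAGATGGC, bound by YY1, occurred in 16% and 2.75%, and GCGCATGC, the core of the NRF1 site, in 10.7% and 2.71%. GABPA, YY1 and NRF1 are known regulators of nuclear genes for mitochondrial proteins. No motif contains another, but CCGGAAG and AAGATGGC can overlap by 3 letters. CACGTG, the E-box of the MYC family, occurred in 9.33% and 7.15%. Its 7 windows belong to 5 members, since 3 overlapping windows of Mrpl2 hold the same site, so no excess is stated for it. AAGGTCA, bound by nuclear receptors such as ESRRA, occurred in 5.33% and 4.72%. The median share of G and C bases was 58.7% in the members' windows and 52.7% in all windows, and the motif shares were not matched for it. At least 1 of the first 3 motifs was present in 38 members, and in 50.7% of the members' windows against 13.3% of all windows. The median log2 fold change was 0.039 for 25 tested members with CCGGAAG and 0.062 for 43 without it, and it was 0.064 for 8 members with GCGCATGC and 0.059 for 60 without it. For AAGATGGC it was 0.026 in 12 members with and 0.063 in 56 without it, for CACGTG 0.043 in 5 and 0.061 in 63, and for AAGGTCA 0.012 in 4 and 0.060 in 64, and these differences were not tested. A match describes the letters and does not show that a factor binds.

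The promoters of the members whose libraries did not overlap are given to show how differently they are built, 5′ to 3′ on the gene's strand, with the transcript start after base 250 and matches to any of the 5 motifs on either strand in capitals. Mrpl13 is not among them. Mrps18b holds GCGCATGC 2 times and CCGGAAG 1 time, each as the reverse complement, and Mrpl39 holds GCGCATGC on both strands in overlapping matches. Mrpl3 holds CCGGAAG and Mrps15 AAGGTCA, while none of the 5 motifs is in the windows of Mrpl46 and Mrps30.
Mrps18b (chr17:35916391-35916690, minus strand): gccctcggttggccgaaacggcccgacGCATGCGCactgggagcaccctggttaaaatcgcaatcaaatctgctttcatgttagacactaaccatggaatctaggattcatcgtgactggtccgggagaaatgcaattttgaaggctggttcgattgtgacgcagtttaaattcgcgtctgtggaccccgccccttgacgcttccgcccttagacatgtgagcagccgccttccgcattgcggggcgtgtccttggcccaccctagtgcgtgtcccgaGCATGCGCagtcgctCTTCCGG
Mrpl39 (chr16:84735195-84735494, minus strand): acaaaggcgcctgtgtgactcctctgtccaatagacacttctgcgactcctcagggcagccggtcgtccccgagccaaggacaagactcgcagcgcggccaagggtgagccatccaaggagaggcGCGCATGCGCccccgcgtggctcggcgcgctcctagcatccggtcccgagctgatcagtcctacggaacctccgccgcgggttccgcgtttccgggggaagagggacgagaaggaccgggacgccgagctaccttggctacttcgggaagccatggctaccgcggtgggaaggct
Mrpl3 (chr9:105053018-105053317, plus strand): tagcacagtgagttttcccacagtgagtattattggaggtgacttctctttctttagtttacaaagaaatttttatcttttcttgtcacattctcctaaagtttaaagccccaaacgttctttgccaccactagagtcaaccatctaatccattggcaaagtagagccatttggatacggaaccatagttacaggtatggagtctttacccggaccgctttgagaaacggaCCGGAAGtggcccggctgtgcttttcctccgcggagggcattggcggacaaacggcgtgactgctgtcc
Mrps15 (chr4:126046678-126046977, plus strand): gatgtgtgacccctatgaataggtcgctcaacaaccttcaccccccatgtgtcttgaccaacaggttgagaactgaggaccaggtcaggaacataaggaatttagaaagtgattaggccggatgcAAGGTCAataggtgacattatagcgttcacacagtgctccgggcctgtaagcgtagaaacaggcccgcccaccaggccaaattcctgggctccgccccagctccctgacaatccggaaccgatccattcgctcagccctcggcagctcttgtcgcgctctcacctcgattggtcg
Mrpl46 (chr7:78783040-78783339, minus strand): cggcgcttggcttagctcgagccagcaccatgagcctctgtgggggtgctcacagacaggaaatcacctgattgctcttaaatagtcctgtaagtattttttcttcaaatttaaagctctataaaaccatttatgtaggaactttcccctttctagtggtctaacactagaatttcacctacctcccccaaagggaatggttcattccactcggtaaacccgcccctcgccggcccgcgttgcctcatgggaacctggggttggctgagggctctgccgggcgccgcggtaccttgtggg
Mrps30 (chr13:118387203-118387502, minus strand): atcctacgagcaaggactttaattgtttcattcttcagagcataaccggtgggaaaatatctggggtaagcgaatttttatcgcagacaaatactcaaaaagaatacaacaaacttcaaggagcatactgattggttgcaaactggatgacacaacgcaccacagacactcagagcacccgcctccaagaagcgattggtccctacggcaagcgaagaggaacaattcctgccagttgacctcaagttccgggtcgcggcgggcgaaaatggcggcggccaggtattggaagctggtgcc

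For comparison, the promoters of Mrps21 and Mrps18a, the members with the lowest log2 fold changes, and of Mrpl12, the member with the highest CPM, are given in the same way. Mrps18a holds CCGGAAG and AAGATGGC, Mrps21 holds CCGGAAG as the reverse complement and AAGGTCA on each strand, and Mrpl12 holds AAGGTCA as the reverse complement. Windows with such letters thus occurred at both ends of the order of log2 fold changes.
Mrps21 (chr3:95871465-95871764, minus strand): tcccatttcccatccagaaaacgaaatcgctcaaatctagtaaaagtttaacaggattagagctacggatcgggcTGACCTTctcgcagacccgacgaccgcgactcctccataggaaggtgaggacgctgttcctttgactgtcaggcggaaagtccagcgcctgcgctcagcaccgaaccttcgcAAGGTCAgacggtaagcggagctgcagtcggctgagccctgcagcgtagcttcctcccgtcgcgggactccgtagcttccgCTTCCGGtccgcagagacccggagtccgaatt
Mrps18a (chr17:46110754-46111053, plus strand): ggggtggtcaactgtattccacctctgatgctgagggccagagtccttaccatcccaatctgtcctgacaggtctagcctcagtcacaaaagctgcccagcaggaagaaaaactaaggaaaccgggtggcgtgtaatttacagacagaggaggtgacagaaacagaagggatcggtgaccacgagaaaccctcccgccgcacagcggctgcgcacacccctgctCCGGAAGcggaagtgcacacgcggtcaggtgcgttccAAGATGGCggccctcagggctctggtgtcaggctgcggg
Mrpl12 (chr11:120484387-120484686, plus strand): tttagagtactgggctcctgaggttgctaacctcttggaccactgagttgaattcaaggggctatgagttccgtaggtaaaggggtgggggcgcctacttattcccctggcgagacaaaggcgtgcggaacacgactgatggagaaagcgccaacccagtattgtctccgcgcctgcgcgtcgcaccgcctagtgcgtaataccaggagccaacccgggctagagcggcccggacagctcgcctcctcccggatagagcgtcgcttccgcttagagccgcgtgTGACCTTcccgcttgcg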

How the data were processed

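RNA-seq was done on 5 control and 5 KO libraries of differentiated adipocytes with the SMARTer and Nextera kits. The deposited count table was made by the authors, whose methods name STAR, the mouse genome GRCm38.p6 and featureCounts, and holds 56748 genes with 0 columns of other samples. Counts were fitted in edgeR 4.0.16 (R 4.3.3) with TMM factors, filterByExpr (minimum count 10), quasi-likelihood tests and Benjamini-Hochberg adjustment over 14270 genes, with a limit of 0.05 on the adjusted p. The biological coefficient of variation was 9.35%, and the gap between groups was also compared over all 252 ways to split the libraries 5 and 5. Levels per library are CPM with TMM factors, and RPKM uses GENCODE M21 lengths. The Ensembl annotation cited by the authors for counting was not matched to a GENCODE release, so lengths and exon overlaps may differ from it. Positions in GENCODE M21 were found for 78 of 78 members and 14096 of 14270 genes tested. Alternatives were DESeq2 1.42.0, limma 3.58.1 voom with quality weights, RLE and upper-quartile factors, library totals, other filters, a replicate block, subunits by structure and each library left out. Replicate numbers were not used as pairs. The script was also tested on simulated data, whose planted changes were larger than that of any member. That check does not cover changes as small as those of the members. Genes are named if their 5 KO libraries lay apart from all controls, if they had the 8 largest or 8 smallest log2 fold changes or the 5 highest or 3 lowest RPKM, or by their place in the ribosome. Also named are Fam20c, the subunits with other names, the largest and smallest change of each list of related genes and the most abundant gene of each cell type list. Members and lists were chosen with earlier results of these data known.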

Additional observations from a re-analysis of the deposited data

Results flagged for a closer look

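A sample was set apart when its gap to the nearest other sample of its group was large beside the range of that group. Among 122 groups of 5 libraries, 6 held such a sample, and chance flags about 1 in 20 groups. Mrps18b in KO 5 had 66.1 CPM, above the other KO libraries at 61.1 to 62.1 CPM. Mrps15 in Control 1 had 37.2 CPM, below the other control libraries at 40.1 to 40.6 CPM. Mrpl36 in KO 1 had 35.0 CPM, below the other KO libraries at 38.7 to 39.5 CPM. Mrpl54 in KO 3 had 61.6 CPM, above the other KO libraries at 54.9 to 56.6 CPM. Aurkaip1 in KO 2 had 75.9 CPM, below the other KO libraries at 82.5 to 84.2 CPM. Ndufa6 in KO 4 had 177 CPM, below the other KO libraries at 185 to 188 CPM.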

How the results depend on the processing

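The median log2 fold change of the members stayed positive, from 0.038 to 0.064 over other tests, scalings and filters and from 0.040 to 0.073 with 1 library left out. Their positive number ran from 62 to 70 and from 65 to 74. The large subunit's median ran from 0.039 to 0.065 over other settings and from 0.044 to 0.079 with 1 library left out, and the small subunit's from 0.036 to 0.062 and from 0.036 to 0.072. The number of members called higher by edgeR was 0, against 2 by DESeq2, 1 by limma voom and 0 to 1 with 1 library left out (Mrpl13, without Control 4 or without KO 2), and none was called lower under any setting. Over all genes edgeR called 119 higher without Control 4 and 23 without KO 2, against 44 with every library. The median level of 23.3 RPKM was 34.8 RPKM by principal transcript. That length, and leaving out Control 4 and KO 1 together, were chosen after seeing the data.

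Of 58 tested genes given by name, among them 7 named after their values were seen, 44 kept their direction throughout. Of 1102 values, 1022 kept direction and side of the limit, 46 changed direction, 8 newly passed the limit and 26 lost it. The calls that were lost were those of Ndufa6 in 11 settings, Cox6a2 in 7, Ucp1 in 7 and Cd248 in 1. The values that newly passed were those of Mrpl13 in 4 settings and of Mrpl1, Ptcd3, Hars2 and Fabp4 in DESeq2. The Mrpl36 log2 fold change turned to 0.00327 with DESeq2, 0.00333 with RLE factors, 0.000893 with no filter and 0.00520 with the replicate block. The Mrps36 log2 fold change turned to -0.015 with library totals, the Elovl3 log2 fold change to -0.0055 with limma voom, and the Lyz2 log2 fold change to -0.030 with limma voom and -0.046 without Control 4 and KO 1. With 1 library left out the range crossed 0 for Mrpl36 (-0.060 to 0.036), Mrps12 (-0.055 to 0.047), Mrpl43 (-0.030 to 0.014), Mrps6 (-0.079 to 0.022), Mrpl57 (-0.061 to 0.013), Mrpl33 (-0.073 to 0.031), Mrpl12 (-0.0038 to 0.052), Mrpl23 (-0.029 to 0.051), Mrps18c (-0.014 to 0.054), Mrps36 (-0.025 to 0.040), Chchd1 (-0.0098 to 0.087), Lyz2 (-0.015 to 0.18), Ly6a (-0.14 to 0.021) and Elovl3 (-0.023 to 0.080). The cause was not tested.

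With the replicate number as a block, 70 members were positive, 0 were called (smallest adjusted p = 0.118 by edgeR), and over all genes 21 were called higher and 193 lower, against 44 and 265 without it. Libraries of the same number had correlations of -0.251 to 0.263, and 2 of 10 libraries correlated best with their own number. The labels do not say whether libraries of the same number were prepared together, so no pairing was assumed. At 5 libraries a group, the median SE of a member's log2 fold change was 0.047 beside a median log2 fold change of 0.060.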
